A study of Mus musculus with 4 samples.

Results

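The transcription factors that build and maintain skeletal muscle were followed here by the places where their transcripts began. The group held 9 genes, chosen with earlier results of these data known. They were Mef2a, Mef2c and Mef2d of the MEF2 family, Six4 of the sine oculis homeobox family, the myogenic factors Myod1, Myog and Myf6, and Tead1 and Srf. Every row of the start site table that carried one of these gene symbols was taken, which gave 126 of 42207 sites and 9 of 9838 genes. Site counts were uneven, with 66 sites on Mef2c, 24 on Mef2a, 21 on Tead1, 7 on Mef2d, 3 on Six4, 2 on Myf6 and 1 each on Myod1, Myog and Srf. On Mef2c and on Mef2d, 1 site lay on the strand opposite to the gene.

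The RNA came from the gastrocnemius muscle of adult AMPKα2-/- C57BL/6 mice (KO) and their wild-type controls (WT), with 2 mice and 2 libraries per group. The KO was present in the whole animal and removed DNA coding for part of the catalytic domain of AMPKα2, a subunit of the AMP-activated protein kinase that responds to cellular energy. Whole transcriptome start site sequencing (WTSS-seq) reads RNA from its 5′ end after depletion of ribosomal RNA, so that a site is a cluster of read ends and may be a promoter or the end of an RNA fragment. The libraries held 1300069 to 2900279 reads, with more in both KO libraries (2900279 and 2303294) than in the WT libraries (1300069 and 1568945). Ribosomal and mitochondrial reads took 15.2 to 17.7% and 19.4 to 24.1% of them. Prkaa2, the targeted gene, had 149 and 183 normalized reads in KO, against 153 and 186 in WT, so the sum of its sites did not separate the groups (log2 fold change -0.03, SE 0.50). A pair of its intronic sites had 0 reads in both KO libraries, with 19 and 4 reads in WT at one and 5 and 8 at the other, below the level that was tested. Other intronic sites, also below that level, went the other way. They had 0 reads in both WT libraries, with 3 and 12 reads in KO at one and 11 and 10 at another. The position of its sites relative to the removed DNA is not given in the sources used here, so the labels were neither borne out nor contradicted by the summed reads, and KO and WT are used as the labels give them.

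MEF2 proteins bind A/T-rich boxes in muscle genes and are held back by histone deacetylases such as HDAC4, HDAC5 and HDAC9. The myogenic factors MyoD, myogenin and MRF4 (the product of Myf6) bind E boxes together with E proteins, while Six4 binds MEF3 boxes with EYA co-activators. TEAD factors bind M-CAT elements with YAP, TAZ or Vestigial-like partners, and SRF binds CArG boxes with myocardin-related co-activators.

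Promoter sequence from RefSeq (GRCm38.p6) was available for 6 of the 9 genes, in 9 entries. The starts of Myog, Six4 and Mef2a are shown because a WTSS site fell within the printed bases, and the 3 starts of Mef2c because this gene carried most of the reads. Each run covers 100 bases before the RefSeq start and 30 bases from it, 5′ to 3′ on the strand of the gene, and capitals mark the bases covered by a WTSS site. The Mef2a site runs on past the printed bases.
Myog, chr1:134289904-134290033, plus strand: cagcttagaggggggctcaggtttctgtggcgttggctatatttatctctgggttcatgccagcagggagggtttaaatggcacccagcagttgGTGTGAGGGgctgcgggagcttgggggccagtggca
Six4, chr12:73113396-73113525, minus strand: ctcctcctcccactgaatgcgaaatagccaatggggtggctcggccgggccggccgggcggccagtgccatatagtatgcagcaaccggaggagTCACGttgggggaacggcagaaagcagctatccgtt
Mef2a, chr7:67372829-67372958, minus strand: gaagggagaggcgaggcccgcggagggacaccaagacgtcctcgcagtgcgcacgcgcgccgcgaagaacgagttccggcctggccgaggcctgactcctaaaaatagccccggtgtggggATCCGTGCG
Mef2c start 1, chr13:83503934-83504063, plus strand: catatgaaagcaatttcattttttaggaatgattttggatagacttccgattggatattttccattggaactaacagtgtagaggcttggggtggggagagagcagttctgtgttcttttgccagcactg
Mef2c start 2, chr13:83523556-83523685, plus strand: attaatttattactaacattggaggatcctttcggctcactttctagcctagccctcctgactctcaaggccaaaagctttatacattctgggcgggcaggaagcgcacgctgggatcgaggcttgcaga
Mef2c start 3, chr13:83573507-83573636, plus strand: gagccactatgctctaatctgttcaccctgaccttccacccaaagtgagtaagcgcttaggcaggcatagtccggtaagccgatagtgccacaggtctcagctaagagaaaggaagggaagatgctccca

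Motifs of the factors themselves were searched on both strands of all 32851 promoter windows, which run from 250 bases before the start to 50 after. The E box (CANNTG) was found in 72.3% of all windows and in 3 of the 9 windows of the group, and the MEF3 box (TCAGGTT) in 4.07% and 3. The MEF2 box was searched as YTAWWWWTAR, where Y is C or T, W is A or T and R is A or G. A full match was found in 3.19% of all windows and, in the group, only in that of Mef2a, where it spans the RefSeq start. The bases ctatatttat of the Myog window differ from this pattern at the last base and were not counted. The CArG box was found in 1.63% of all windows and, in the group, only in that of Srf, which held 2. The M-CAT element (CATTCC) was found in 14.7% and 1, and the TATA box (TATAAA) in 13.6% and 3, with no overlap counted between motifs. The Myog window held a MEF3 box that began 84 bases before the start and an E box that ended 7 bases before it, next to the bases in capitals. These are matches of letters and not sites of binding.

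Few of the pooled reads of the group, of which Mef2c had 23916, began near an annotated gene start. Sites within 500 bp of the 5′ end of the RefSeq gene model, on its strand, held 2.22% of the reads of the group in KO replicate 1 (exact 95% binomial interval 1.85 to 2.64%) and 2.14% in KO replicate 2 (1.89 to 2.41%). They held 1.55% in WT replicate 1 (1.22 to 1.94%) and 5.46% in WT replicate 2 (4.77 to 6.20%). The WT libraries thus lay on either side of the KO libraries. These intervals cover counting error only, since reads copied by PCR were not told apart. Without the most read Mef2c site the mean share was 5.70% in KO and 8.97% in WT. The share over all genes was not computed, so these values are not shown to be particular to the group.

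The members divided by gene in this respect. All reads of Myf6, Myod1 and Myog lay in sites near the gene start, and the Myog site covered the RefSeq start itself. The site of Six4 ended 2 bases before the first RefSeq promoter start and held 6 and 2 reads in KO, against 2 and 1 in WT, of sums of 52, 12, 12 and 17. The Mef2a site, 24 bases into the transcript, held 7, 11, 0 and 8 reads in KO 1, KO 2, WT 1 and WT 2. The Mef2c site 142 bases after start 1 held 38 and 88 reads in KO, against 2 and 72 in WT, and the one 87 bases after start 3 held 30, 20, 31 and 1. The nearest site to start 2 lay 2296 bases before it. The nearest sites on the gene's strand lay 11.6 kb from the 5′ end of Tead1, 6.13 kb from the RefSeq promoter start of Mef2d and 7.11 kb from that of Srf.

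Mef2c, a MEF2 factor of muscle and heart, had 23916 of the reads of the group. Its normalized reads, summed over sites and scaled by DESeq2 size factors, were 2811 in KO replicate 1 and 9926 in KO replicate 2, and 6155 and 4441 in WT. The KO libraries were the lowest and the highest of the 4, and the log2 fold change of 0.27 (SE 0.54) was within their spread (adjusted p = 0.984, DESeq2). Without KO replicate 2 it was -0.90.

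A single contained site at chr13:83663804-83663978, in the last part of the gene, accounted for 51.8 and 76.0% of the Mef2c reads in KO and for 69.7 and 67.6% in WT. It held 2384 and 8633 reads in KO, against 3057 and 2409 in WT. The sites next in reads were intronic. The one at chr13:83542753-83542765 had 567 and 1156 normalized reads in KO, against 1068 and 489 in WT, and the one at chr13:83558603-83558649 had 188, 245, 247 and 137, so neither separated the groups. After them came a site that extends from an exon into an intron, at chr13:83575515-83575679. It had 70.9 and 125 normalized reads in KO, against 70.6 and 199 in WT. Intronic sites held 19.7 to 40.9% of all Mef2c reads in the 4 libraries, beside 27.7 to 38.7% over all nuclear genes. Of the Mef2c reads outside the most read site, 60.8 to 88.1% began in introns. The plot of Mef2c sites along the gene shows these peaks far from the RefSeq starts.

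**Figure D1:**
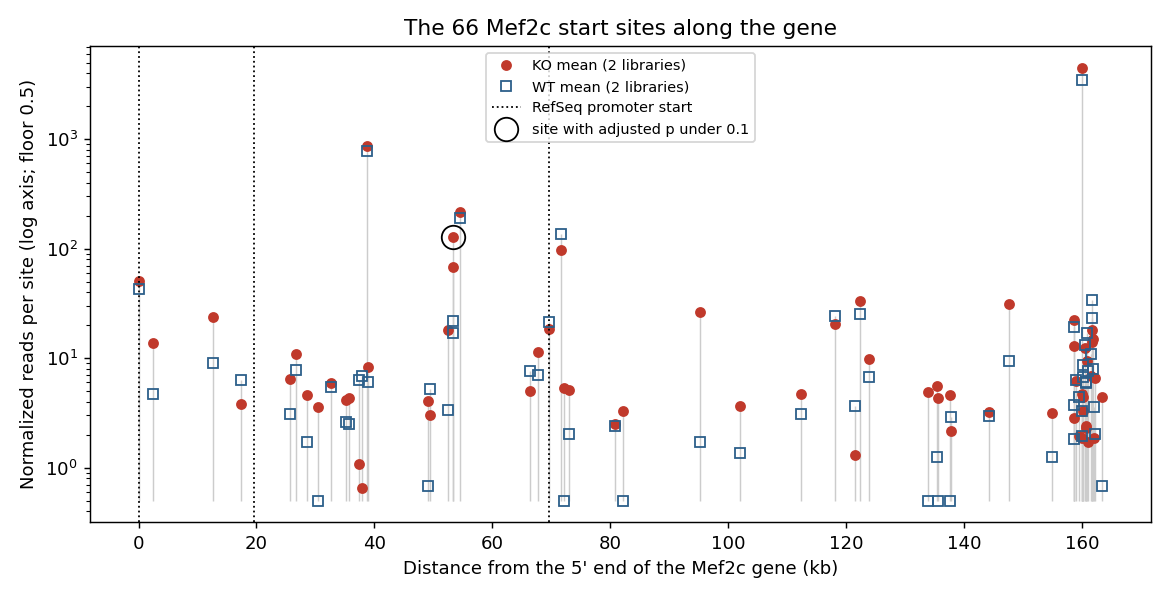
Normalized reads (log axis, mean of 2 libraries) of each of the 66 Mef2c sites against the distance from the 5′ end of the gene in kb. Red dots are KO, open blue squares WT, dotted lines the 3 RefSeq promoter starts, and the black ring the called site. The 2 highest sites lie between starts 2 and 3 and at the far end of the gene.

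A call was made at 1 Mef2c site, a share of calls no higher than over all sites. Of the 126 sites, 39 had an adjusted p in DESeq2, and 1 of them was called at an adjusted p under 0.1, which is 2.56% beside 3.21% of all 11112 sites tested. The called site lies in an intron at chr13:83557402-83557438, 33.8 kb after start 2 and 16.2 kb before start 3. It had 97.1 and 158 normalized reads in KO, against 23.1 and 20.8 in WT, from 148, 183, 17 and 18 reads, so both KO libraries lay above both WT libraries. The mean was 128 ± 43.0 in KO and 21.9 ± 1.61 in WT (SD, n = 2), a log2 fold change of 2.54 (SE 0.78, adjusted p = 0.0519 by DESeq2). The call was lost in edgeR (adjusted p = 0.179), without independent filtering (0.197), and when any 1 library was left out, with adjusted p values of 0.501 without KO replicate 1, 1.00 without KO replicate 2, 0.146 without WT replicate 1 and 0.314 without WT replicate 2, while the log2 fold change stayed between 2.13 and 2.88.

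The sites beside it gave a mixed picture. The neighbour 79 bases upstream, at chr13:83557326-83557332, had 101 and 34.5 normalized reads in KO, against 19.0 and 15.0 in WT, again without overlap (log2 fold change 2.00, SE 0.95, adjusted p = 0.425). The neighbour 1206 bases downstream was that of similar level in both groups described above (log2 fold change 0.17, SE 0.64). A further intronic site at chr13:83599298-83599299 had 28 and 40 reads in KO, against 0 and 3 in WT (adjusted p = 0.264).

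Tead1, a TEAD factor of muscle and other tissues, was the only member gene tested whose libraries did not overlap between groups. Of the 4688 genes tested, 41.4% had no overlap. Its normalized reads were 285 and 128 in KO and 88.3 and 122 in WT, with KO replicate 2 only just above WT replicate 2 (log2 fold change 0.97, SE 0.57, adjusted p = 0.660). Without KO replicate 1 the log2 fold change was 0.29. The most read site, a contained site at chr7:112898831-112898858, had 176 and 35 reads in KO, against 0 and 11 in WT. Its log2 fold change of 3.49 (SE 1.22) had an adjusted p of 0.114 in DESeq2 and 0.326 in edgeR. The adjusted p was 1.00 without either KO library, 0.387 without WT replicate 1 and 0.0466 without WT replicate 2, which left a WT library with 0 reads at this site, and the log2 fold change ran from 2.29 to 8.13. The next most read site, at chr7:112901297-112901345, had 71 and 39 reads in KO, against 20 and 14 in WT. Of the 21 Tead1 sites, 8 had no read in WT, beside 11.8% of all sites. Of those 8, 4 had reads in KO replicate 1 alone, the library with the most reads. Over the whole table, 1927 of the 4994 sites without a WT read had reads in that library alone. Every deposited site had at least 10 reads in all, so a site empty in WT was listed only through its KO reads.

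**Figure D2:**
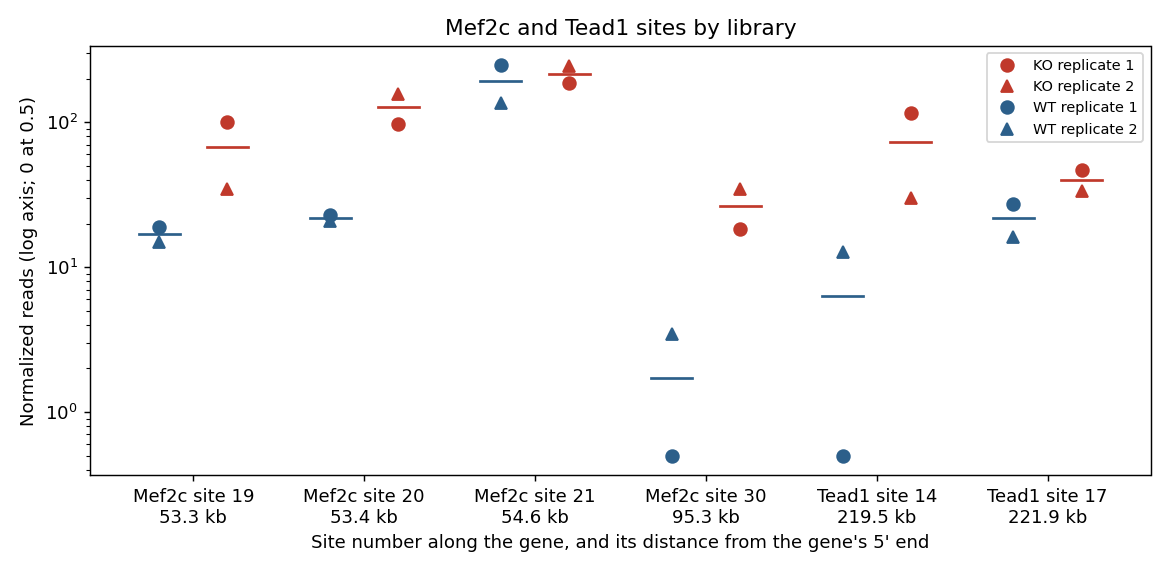
Normalized reads (log axis) of 4 Mef2c and 2 Tead1 sites in each library, with circles for replicate 1, triangles for replicate 2, red for KO, blue for WT and lines for group means. The sites were picked for their p-value, reads or place beside the called site. KO and WT overlap at Mef2c site 21, 54.6 kb into the gene, and not at the other 5, beside 33.3% of the 39 tested sites of the group and 40.4% of all tested sites without overlap.

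Mef2a, a broadly expressed MEF2 factor, differed little between groups. It had 115 and 143 normalized reads in KO, against 91.1 and 147 in WT (log2 fold change 0.12, SE 0.55, adjusted p = 0.992). Intronic sites gave 81.0 and 66.5% of its reads in KO, against 56.9 and 49.2% in WT, and with those sites left out the log2 fold change was -0.49. Over all nuclear genes the intronic shares were 38.7 and 30.3% in KO, against 35.3 and 27.7% in WT. The Mef2a share of WT replicate 1 rested on 65 reads. The most read Mef2a site, at chr7:67316844-67316961, had 8 and 25 reads in KO, against 9 and 23 in WT. Mef2d, the MEF2 factor whose muscle isoform accompanies differentiation, had 84.3 and 187 normalized reads in KO, against 245 and 84.7 in WT (-0.28, SE 0.64, adjusted p = 0.988). The pattern came from 1 contained site at chr3:88169787-88169895, with 97, 190, 167 and 29 reads.

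Six4 had 31.8 and 10.5 normalized reads in KO, against 16.8 and 21.2 in WT (log2 fold change 0.16, SE 1.05, adjusted p = 0.992). Its reads came mostly from a contained site at chr12:73102547-73102564 with 38, 10, 8 and 11 reads. The KO libraries again enclosed the WT libraries.

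Of the myogenic factors, Myf6, the one most used in adult fibres, had 43.4 and 141 normalized reads in KO, against 89.7 and 171 in WT (log2 fold change -0.51, SE 0.67, adjusted p = 0.951). Nearly all of them came from the site over the gene start at chr10:107494658-107494764, with 66, 161, 63 and 126 reads. Its second site, at chr10:107494400-107494410, held 5, 0, 1 and 11 reads. Myod1, which marks activated muscle precursors, had 11 and 6 reads in KO, against 5 and 6 in WT at chr7:46376585-46376646. Myog, which drives fusion into fibres, had 3 and 3 reads in KO, against 3 and 4 in WT at chr1:134289998-134290006. Srf had 7 and 3 reads in KO, against 1 and 0 in WT at chr17:46549048-46549064. These last 3 genes were below the mean of 16.5 normalized reads that a gene needed to be tested, and differences in them were not detectable at this depth.

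In the plot of the 9 genes, the KO and WT libraries do not overlap in Tead1 or in the sparsely read Myod1, Myog and Srf, and overlap in the other 5. Of all genes tested, 41.4% had no overlap. Of 9 genes, 6 were tested, and 0 were called at an adjusted p under 0.1 by DESeq2 or by edgeR, beside 2.67% of all genes tested. At an unadjusted p under 0.05, 0 of the 6 passed in either tool. The intervals were wide, and the 95% interval of the log2 fold change was -0.79 to 1.32 for Mef2c, -0.97 to 1.20 for Mef2a and -0.15 to 2.10 for Tead1. Single libraries set the direction in 5 of them. Without KO replicate 1 the log2 fold change was 0.19 for Mef2d, -0.85 for Six4 and 0.12 for Myf6, and without KO replicate 2 it was -0.04 for Mef2a and -0.90 for Mef2c. Without WT replicate 1 it was -0.18 for Mef2a and 0.68 for Mef2d, and without WT replicate 2 it was 0.00 for Myf6.

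**Figure D3:**
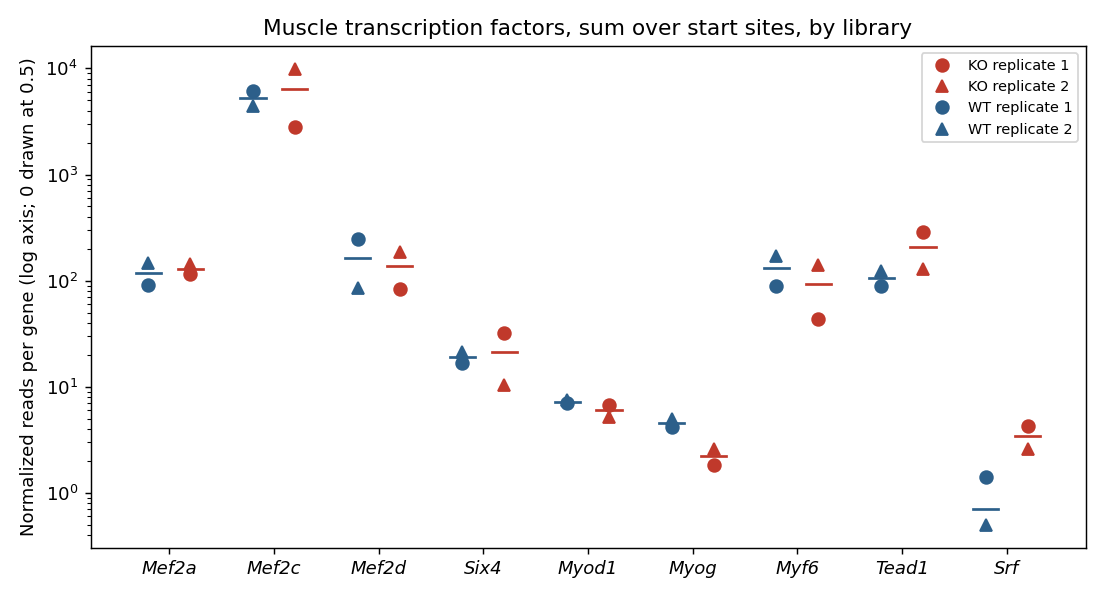
Normalized reads per gene (log axis, sum over sites) of the 9 transcription factors in each library, with circles for replicate 1, triangles for replicate 2, blue for WT, red for KO and lines for group means. Mef2c lies above all others with 2811 to 9926, and Myog and Srf lie below 5.

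Per kb of RefSeq gene span, the read count over the 4 libraries was highest in Myf6 (mean 59.2 normalized reads per kb, 23.1 to 91.0) and Mef2c (35.8, 17.2 to 60.9), whose ranges overlapped. Mef2d followed at 4.99 (2.80 to 8.14), with no overlap with Mef2c. Myod1 (2.52), Six4 (1.39), Myog (1.34), Mef2a (0.855) and Tead1 (0.684) came next, each overlapping its neighbour in the order. Srf was lowest at 0.182 (0 to 0.374). Span includes introns, so long genes such as Tead1 (227 kb) and Mef2a (145 kb) are placed lower than by their summed reads. Reads at a gene start, which are all those of Myf6, Myod1 and Myog, need not grow with span. This is therefore not an order of transcript level. Myod1, with mean normalized reads of 5.98 in KO and 7.24 in WT, stands above Mef2a with 129 and 119.

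The choice among start sites within a gene was examined for the 4 members with at least 2 sites of sufficient reads. None of them passed in the Simes test of edgeR's diffSpliceDGE, beside 1.77% of all 2145 genes tested. The adjusted p was 0.803 for Mef2a (5 sites) and 1.00 for Mef2c (23 sites), Mef2d (2 sites) and Tead1 (5 sites). Their smallest unadjusted p was 0.114, and 0 of the 4 passed in the gene-level F test.

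Over the 39 tested sites of the group, 23 had a higher value in KO and 16 a lower one, with a median log2 fold change of 0.23, and over all tested sites 53.5% were higher and the median was 0.10. KO and WT did not overlap at 13 of the 39 sites, or 33.3%, beside 40.4% of all tested sites. Of the 126 sites, 16 had no read in either WT library (12.7%, beside 11.8% of all sites), and 0 had no read in either KO library (beside 2.29%). A read was found at 116 and 105 of the sites in KO, against 91 and 93 in WT, while 109.7, 99.1, 91.0 and 90.9 would be expected if each library were thinned to 1300069 reads. The thinned values are 87.1 and 78.6% of the sites of the group in KO, and 72.2 and 72.1% in WT. Over all sites they were 84.0 and 78.6% in KO, and 74.4 and 71.7% in WT. Intronic sites made up 58.7% of the sites of the group and 52.1% of those of nuclear genes.

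The genes with a pattern over the 4 libraries most like that of Mef2c, by the root mean square difference of centred log2 normalized reads, were Ifitm3 (0.0620), Ptp4a2 (0.0870) and Fzd4 (0.110). Ifitm3 had 153 and 514 normalized reads in KO, against 341 and 259 in WT.

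Among the partners, Hdac9, a deacetylase that binds MEF2 and represses it, was called higher in KO. It was the only one called of the 18 partners tested, beside 2.67% of all genes tested. The list held 40 partners, 30 of which had a site. Hdac9 had 83.7 and 529.5 normalized reads in KO, against 30.9 and 33.6 in WT (log2 fold change 3.25, SE 0.73, adjusted p = 0.00149 by DESeq2). One contained site at chr12:34373298-34373314 held 91 and 559 of its reads in KO, against 7 and 12 in WT. The adjusted p of the gene was 0.111 in edgeR, and without KO replicate 2 it was 1.00 with a log2 fold change of 1.39. The partners with the most reads were Camk2d, a kinase that acts on these deacetylases, with 1279 ± 499 in KO and 1159.8 ± 478 in WT (SD, n = 2), Tcf4, an E protein, with 671 ± 62.3 and 636 ± 105, and Eya4, a co-activator of Six4, with 545 ± 221 and 296 ± 147, and none of these 3 was called. Id1, an inhibitor of E proteins, is named after its values were seen. It had 128 and 6.99 normalized reads in KO, against 9.82 and 3.74 in WT, so that only KO replicate 1 stood above the rest (adjusted p = 0.129 in DESeq2 and 0.300 in edgeR). It was the 1 partner called without KO replicate 2, a fit in which that library was the only one of KO. Of the 18 tested partners, 15 were higher in KO, beside 50.5% of all tested genes. Their median log2 fold change was 0.34, beside 0.01 for all tested genes. It was 0.69 without WT replicate 1, 0.47 without KO replicate 2 and 0.21 without intronic sites.

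Known targets of the factors gave 0 calls in DESeq2 and 0 in edgeR in each of the 3 target lists. At an unadjusted p under 0.05, 1 TEAD target (Lats2) passed in either tool, and 0 genes of the other lists did. The MEF2 and myogenic targets had 14 of 21 genes tested and a median log2 fold change of -0.02, which ran from -0.23 without WT replicate 1 to 0.19 without WT replicate 2. Among them Xirp2, an actin-binding protein of the fibre, had 3736 ± 869 in KO and 4362 ± 985 in WT (SD, n = 2). Des, the intermediate filament desmin, had 1813 ± 425 and 1625 ± 412, and Ckm, muscle creatine kinase, had 1528 ± 314 and 1678 ± 457.

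The SRF targets had 7 of 13 tested and a median of -0.07, with Tpm1 (tropomyosin) at 1769 ± 573 in KO and 1789 ± 276 in WT, Filip1l at 940.3 ± 35.8 and 1406 ± 46.8, and Actb (beta-actin) at 829 ± 97.9 and 1244 ± 1019. The median was -0.31 without KO replicate 1, -0.61 without KO replicate 2, 0.11 without WT replicate 1 and -0.20 without WT replicate 2. The log2 fold change of Filip1l was -0.58, and -0.06 with sites antisense to exons left out, so its difference rested on those sites. The TEAD targets had 4 of 8 tested, all 4 with a higher fitted value in KO and a median of 1.08, which was 0.63 without WT replicate 1 and 0.65 without intronic sites. The 3 with sites but too few reads to be tested had fitted values below 0, at -1.61 for Ctgf, -0.78 for Ankrd1 and -0.18 for Cyr61. Myh7, the slow myosin, had 689.9 ± 164 in KO, against 416 ± 281 in WT (log2 fold change 0.73, adjusted p = 0.798). Lats2, a Hippo pathway kinase, had 99.4 ± 38.6 and 36.6 ± 7.73 (1.44, adjusted p = 0.427), and with intronic sites left out the value was -0.98. Tnnt1, slow troponin T, had 79.9 ± 20.5 and 26.5 ± 27.6 (1.58, adjusted p = 0.557). Myh7 and Tnnt1 are also markers of slow fibres.

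**Figure D4:**
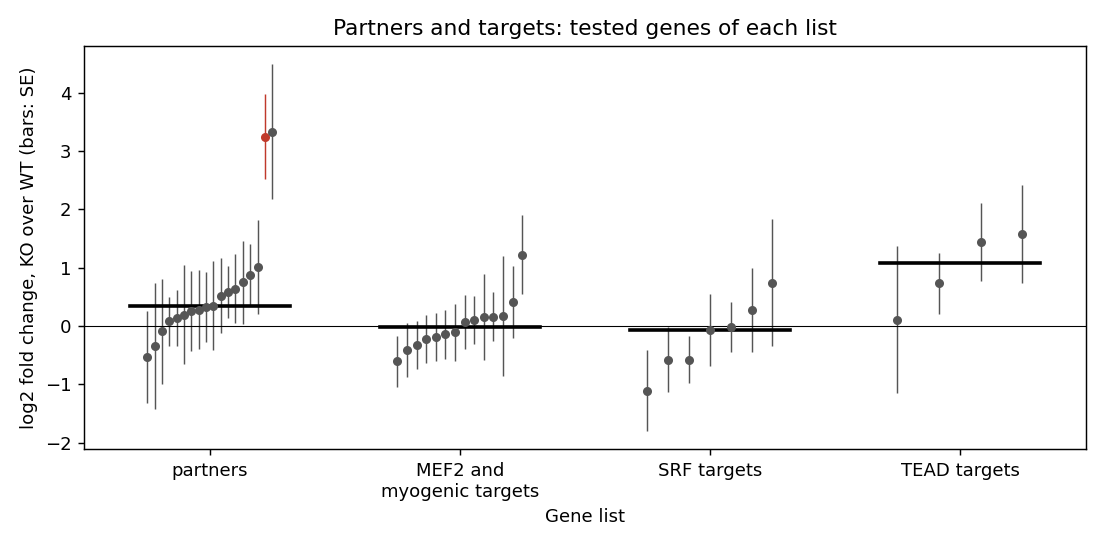
Log2 fold change of KO over WT for each tested gene of the partner and target lists, with bars of 1 SE and black lines for the list medians. The red point is Hdac9, the 1 called gene, and the other point near it is Id1.

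Markers of the cells in the sample were set beside these values. The 7 markers of muscle fibres were all tested, with a median log2 fold change of -0.09 and summed levels of 61413 to 71251 normalized reads in KO and 56234 to 77703 in WT. The 7 satellite cell markers, which bear on Myod1 and Myog, summed to 123 to 156 in KO and 196 to 247 in WT, with 3 tested, a median of -1.23, and no site for Pax7, Myf5 and Calcr. Those with a site went both ways. The log2 fold change was -1.51 for Vcam1, -1.23 for Sdc4 and 0.20 for Chodl. Cdh15, with too few reads for the DESeq2 test, was at 2.34, with 26 and 13 reads in KO, against 3 and 1 in WT. The 6 fibroblast markers summed to 2131 to 2592 in KO and 3091 to 3169 in WT, with 5 tested and a median of -0.49. In DESeq2 and edgeR, 0 markers of either list were called. At an unadjusted p under 0.05, 1 satellite cell marker (Vcam1) passed in both tools and 1 fibroblast marker in DESeq2 alone. Vcam1 had 40.3 and 27.1 normalized reads in KO, against 153 and 39.9 in WT, so the groups overlapped and only WT replicate 1 stood above the rest. The part of these cells in the values of the transcription factors was not tested. In bulk muscle, fewer cells of a type and less RNA per cell cannot be told apart. The summed slow fibre markers ran from 719.6 to 1029 in KO and from 266 to 778 in WT, and the fast fibre markers from 22925 to 34934 and from 22783 to 40164. The endothelial markers summed to 190.5 to 274 in KO and 185 to 197 in WT (2 tested, median -0.48), smooth muscle to 189 to 304 and 318 to 466 (4 tested, -0.37), and adipocytes to 2943 to 5881 and 3262 to 5829 (4 tested, -0.16). Blood and macrophage markers summed to 39.7 to 66.4 and 76.0 to 174 (1 tested) and the only Schwann cell marker with a site to 1.22 to 20.1 and 2.49 to 18.2, and 0 genes of these lists were called in either tool. At an unadjusted p under 0.05, 0 passed in DESeq2 and 1 blood and macrophage marker in edgeR.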

How the data were processed

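The authors deposited raw read counts per clustered start site for 4 WTSS-seq libraries, with a gene symbol and a Cuffcompare class code per site (i, intronic; c, contained in a transcript). Per the labels the build was GRCm38.p5. Mapping and clustering settings were described for the 3′-end libraries, and whether they held for the 5′ ends is not given in the sources used here. No molecular identifiers were described.

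Groups came from the sample titles. Counts were tested as deposited with DESeq2 1.42.0 (Wald test, Benjamini-Hochberg adjusted p under 0.1) over all sites and over sums per gene. Start site use was tested with edgeR 4.0.16. No 2-sided exact permutation test of 2 against 2 libraries can give p below 0.333. Each library came from 1 mouse. Each test was first run on simulated counts with known changes. RefSeq coordinates of GRCm38.p6 were used. Alternatives were edgeR's quasi-likelihood test, other scaling, filters, thresholds, a replicate block and leaving out each library, where the lone library of a group was assumed to vary like the other group.

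All 9 members were named, each with its most read site, any called site and any site within 500 bp of the gene start; for each list, the called genes and the 3 with the most reads were named, and for Mef2c the 3 genes of the most similar pattern. A planned item is not reported here. The members and lists were chosen with earlier results of these data known.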

Additional observations from a re-analysis of the deposited data

How the results depend on the processing

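The same-numbered libraries of KO and WT deviated together with a correlation of only 0.0654 over sites and 0.102 over genes, and the labels do not say that a number marks a shared litter or day, so they were not treated as pairs. With the replicate block, 0 member sites were called higher in KO, the Mef2d site at 88169787 had a log2 fold change of 0.21 and Six4 of -0.04.

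Of the member sites, 1 was called higher in KO, and 0 were in edgeR, without independent filtering, at an adjusted p under 0.05. Without 1 library the number was 0 to 1, and the 1, without WT replicate 2, was the Tead1 site at 112898831 and not the Mef2c site. The number was 1 with other scaling and on nuclear primary chromosomes. No member gene was called, and no member changed its start site use, under any alternative. The partners gave 1 call and, in edgeR, 0. The share of member reads near the gene start was 2.18% in KO and was 1.30% within 100 bp, 2.24% within 1000 bp, 2.70% with any RefSeq promoter start, 3.18% without intronic sites and 5.70% without the most read Mef2c site, and the last gave 8.97% in WT, where the share was 3.50%. The last and the RefSeq promoter starts were chosen after seeing the data, as was the gene sum without that site.

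Leaving out 1 library moved the log2 fold change from -0.18 to 0.47 for Mef2a, -0.90 to 0.91 for Mef2c, -0.96 to 0.68 for Mef2d, -1.58 to 0.12 for Myf6 and -0.85 to 0.75 for Six4. It ran from -1.91 to 0.19 for the Mef2a site at 67316844, -0.81 to 4.17 for the Mef2c site at 83504174, -1.16 to 1.14 for the Mef2c site at 83663804, -1.04 to 1.77 for the Mef2d site, -5.43 to 0.21 and -1.44 to 0.30 for the Myf6 sites at 107494400 and 107494658, and -0.41 to 1.06 for the Six4 site at 73102547. For list genes it ran from -1.27 to 0.66 (Actb), -0.31 to 0.64 (Camk2d), -0.39 to 0.14 (Ckm), -0.09 to 0.41 (Des), -0.11 to 0.26 (Tcf4), -0.38 to 0.29 (Tpm1) and -0.47 to 0.01 (Xirp2). Without intronic sites the direction also turned in Mef2a (-0.49), Camk2d (-0.03), Ckm (0.07), Lats2 (-0.98) and Tpm1 (0.09). The cause was not tested. Depth limited Myod1, Myog and Srf, which had 28, 13 and 11 reads in all.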
